A study of Homo sapiens with 6 samples.

Results

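Glycolysis and the entry of pyruvate into mitochondria were followed here through 36 genes in HCT116, a long-established line of human colorectal carcinoma cells. The list runs from glucose transporters through the glycolytic enzymes and lactate dehydrogenase to the pyruvate carrier, the pyruvate dehydrogenase complex and the kinases and phosphatase that set its activity. Members were found by matching the Ensembl identifiers of the deposited table to gene symbols, and all 36 were among its 20263 genes. The treatment label is WT for 3 samples, which serve as controls, and CSE treated for the other 3; no genetic change is named for either group. CSE is left unexplained in the labels and is taken to mean cigarette smoke extract, because the series title names smoking. How much was given, for how long, and what the WT cells received instead were not found in the labels. Both groups are the same cell line, so the values describe 1 line. Nothing in the labels tells whether replicates were grown separately, so the p-values cover the spread among these libraries alone, and that spread may be technical.

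Glycolysis splits glucose into pyruvate in the cytosol. Hexokinase traps glucose as a phosphate ester, phosphofructokinase makes the committed step, aldolase splits the sugar, and the reactions from GAPDH to pyruvate kinase recover ATP and NADH. Pyruvate is then either reduced to lactate, which regenerates the NAD+ that GAPDH uses, or carried into mitochondria and oxidised by the pyruvate dehydrogenase complex. Most steps are served by several isozymes that differ in regulation and tissue distribution, and cancer cells commonly run glycolysis to lactate even with oxygen present.

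The values are TPM (transcript abundance corrected for gene length and scaled to 1 total in every library), so levels of different genes can be compared, but a value is a share and not an amount. In such bulk libraries a smaller share of cells expressing a gene and less of its RNA in each cell cannot be told apart. Sequencing depth is unknown, and each library had 12640 to 12778 genes at 1 TPM or more. Mitochondrially encoded transcripts took up 27.0%, 28.6% and 30.2% of the WT libraries and 25.5% to 25.8% of the CSE libraries. Leaving them out and rescaling moved the median log2 fold change of all genes tested from 0.00 to -0.06, and members whose call or direction depends on this are given with both values. Of 10 colorectal epithelial markers, which summed to 5082 to 5315 TPM in WT and 5307 to 5613 in CSE, VIL1, CDH17 and LGALS4 were below 1 TPM in every sample and CDX1 was at 0, whereas EPCAM, CDH1 and the keratins KRT8, KRT18 and KRT19 were all above 100 TPM. Fibroblast markers summed to 43.4 to 45.5 TPM in WT and 37.3 to 38.1 in CSE, nearly all of it COL1A1, with COL1A2, DCN, PDGFRB and LUM below 1 TPM. The 3 endothelial markers stayed below 1 TPM, and the 4 leukocyte markers summed to 1.84 TPM at most.

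Most of the pathway was higher in CSE. All 36 genes passed the filter of at least 1 TPM in at least 3 libraries. With limma on log2(TPM + 1) and p-values adjusted over all 12793 genes tested, 27 of the 36 rose, 3 fell and 6 did not pass. Among all genes tested 50.1% were called, 24.5% higher and 25.6% lower. The median log2 fold change, CSE minus WT, was 0.20 for the members and 0.00 for all genes tested. The changes were small: 3 members were at least 1.5-fold higher, and the other 24 that rose did so by less. WT and CSE samples were fully separated for 30 members, compared with 57.4% of all genes tested. Without mitochondrially encoded genes 20 members rose and 4 fell, while 18.0% of all genes tested were called higher in place of 24.5%. As a share of the calls among all genes, those higher went from 48.9% to 34.1%.

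**Figure D1:**
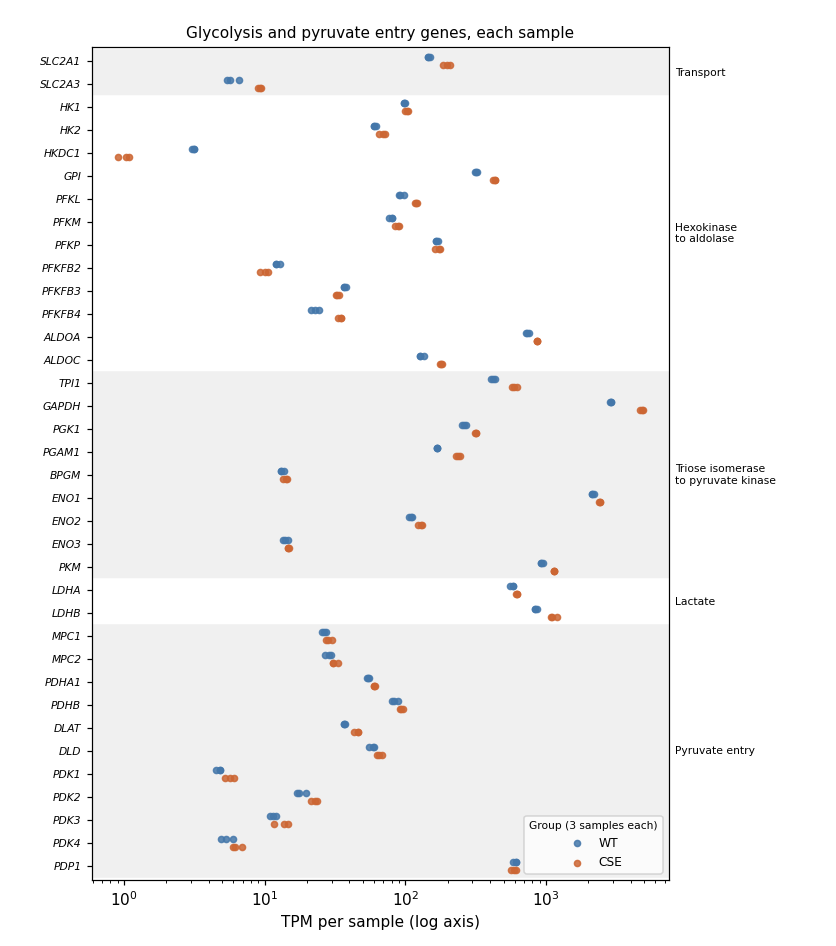
TPM of each member in every sample on a log axis, with 3 WT samples (blue, upper row of each gene) and 3 CSE samples (orange, lower row); shading marks the pathway stages. Levels run from about 1 TPM for HKDC1 in CSE to 4863 TPM for GAPDH, and 30 of 36 members have groups that do not overlap.

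**Figure D2:**
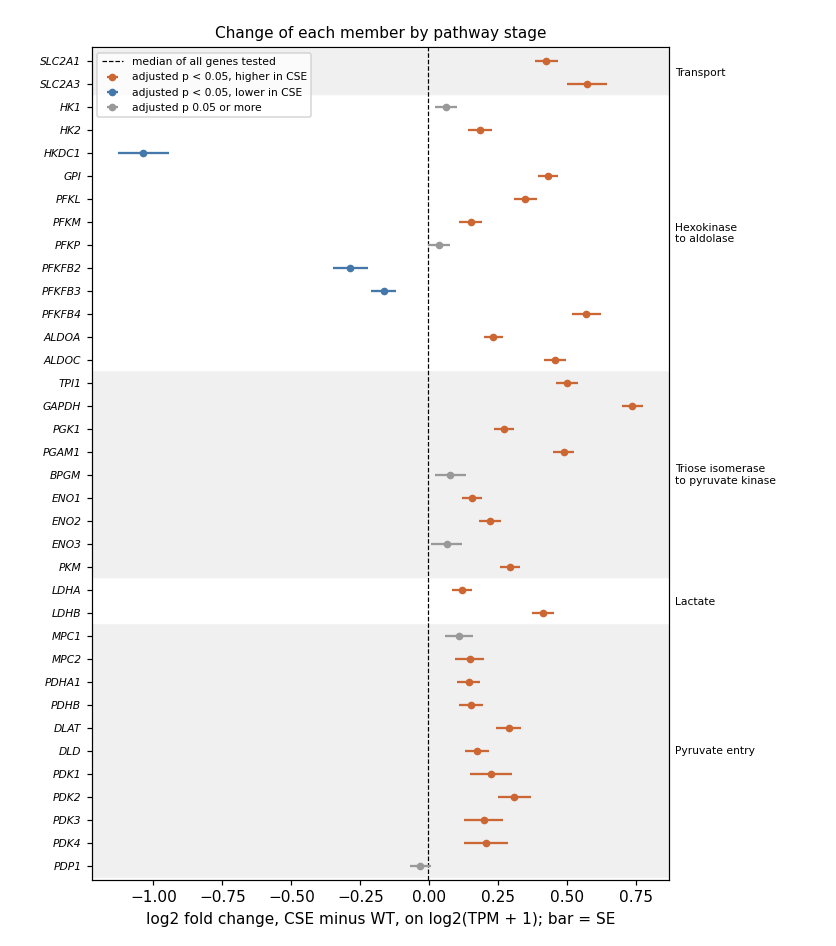
Log2 fold change of each member, CSE against WT as log2(TPM + 1), with SE bars, from the fit to 6 samples; the dashed line is the median of all 12793 genes tested. Of the 36, 27 rose, HKDC1, PFKFB2 and PFKFB3 fell, and 6 grey points did not pass the test.

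Members are given next by abundance, without a test of the difference. Of the 15 members with a WT mean of at least 100 TPM 13 rose, with a median log2 fold change of 0.29, and of the 21 below it 14 rose, with a median of 0.15. Over all genes tested 38.3% of the 1252 genes at or above 100 TPM in WT were called higher, against 22.97% of the 11541 below. The 36 members together made up 1.12% ± 0.0145 of all TPM in WT and 1.47% ± 0.00669 in CSE (SD, n = 3 each).

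Both glucose transporters rose. SLC2A1, the widely expressed basal transporter GLUT1 (ENSG00000117394, GRCh38 chromosome 1, 42925375 to 42959176, minus strand), had 151, 144 and 145 TPM in the WT samples and 199, 207 and 186 TPM in the CSE samples. Every CSE sample was above every WT sample, and the mean was 1.34-fold higher (0.42 on the log2 scale, SE 0.0422, limma adjusted p = 3.96e-08). SLC2A3, a high-affinity transporter best known from neurons (ENSG00000059804, chromosome 12, 7919230 to 7936275, minus strand), was far scarcer, with 5.63, 5.44 and 6.59 TPM in WT and 9, 9.26 and 9.37 TPM in CSE. It was 1.56-fold higher (0.57 on the log2 scale, SE 0.0721, limma adjusted p = 1.11e-06), and reads may be shared with its near-identical paralog SLC2A14, which was listed at a mean of 0.06 TPM in WT and 0.0467 in CSE. The shares of the pair overlapped between groups, with SLC2A3 at 3.86% ± 0.424 of their sum in WT and 4.47% ± 0.285 in CSE (SD, n = 3 each; exact two-sided permutation test, p = 0.3).

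Shares of this kind were computed for 30 members of 11 families, within each sample, from summed TPM. With 3 samples against 3 the exact two-sided permutation test cannot give a p below 0.1, or below 0.214 after adjustment over the 30 shares, so differences between shares are given as values. For 14 of the 30 the groups did not overlap, while for TPM of single genes this held for 57.4% of all genes tested. In families that are a pair the shares mirror each other, so the same difference is counted for both genes.

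At the hexokinase step HK2 rose, the scarce HKDC1 fell and the most abundant, HK1, did not pass. HK1, the housekeeping hexokinase bound to mitochondria (ENSG00000156515, chromosome 10, 69269984 to 69401884, plus strand), had 97.4, 97.4 and 99.3 TPM in WT and 104, 100 and 102 TPM in CSE, and did not pass (0.06 on the log2 scale, SE 0.0394, limma adjusted p = 0.218) although the groups did not overlap. HK2, the inducible hexokinase of many tumours, rose 1.14-fold from a mean of 60.6 to 69.0 TPM (log2 fold change 0.18, limma adjusted p = 0.00159). HKDC1, a hexokinase-like enzyme that lies next to HK1 (ENSG00000156510, chromosome 10, 69220303 to 69267559, plus strand), had 3.15, 3.06 and 3.15 TPM in WT and 1.09, 0.91 and 1.03 TPM in CSE. All CSE values lay at about 1 TPM, and HKDC1 showed the largest change of any member, with mean TPM 3.09-fold lower in CSE. Its fitted log2 fold change of -1.04 (SE 0.0913, limma adjusted p = 6.2e-09) understates that ratio, because 1 is added to values of this size, and was -1.54 with a pseudocount of 0.1. It held 1.93% ± 0.0204 of hexokinase TPM in WT and 0.586% ± 0.0517 in CSE, while HK2 held 37.5% and 40.1%, without overlap for either. Summed hexokinase TPM was 162 ± 1.06 in WT and 172 ± 3.17 in CSE (SD, n = 3 each).

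GPI, which turns glucose phosphate into fructose phosphate (ENSG00000105220, chromosome 19, 34359480 to 34402413, plus strand), rose more evenly than most. It had 322, 316 and 316 TPM in WT and 432, 432 and 422 TPM in CSE, 1.35-fold higher (0.43 on the log2 scale, SE 0.0355, limma adjusted p = 2.4e-09).

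Of the 3 phosphofructokinase genes, whose products form the tetramer of the committed step, PFKL and PFKM rose and the most abundant, PFKP, did not pass. PFKL, the liver-type subunit (ENSG00000141959, chromosome 21, 44300051 to 44327376, plus strand), had 97.8, 92.1 and 90.8 TPM in WT and 122, 120 and 116 TPM in CSE (1.27-fold, 0.35 on the log2 scale, SE 0.0414, limma adjusted p = 5.26e-07). PFKM, the muscle-type subunit, rose from 79.1 to 87.9 TPM (log2 fold change 0.15, limma adjusted p = 0.00524), or by 0.09 without mitochondrially encoded genes (limma adjusted p = 0.0393). PFKP, the platelet-type subunit, had 171, 164 and 164 TPM in WT and 175, 175 and 162 TPM in CSE; the groups overlapped, and the log2 fold change of 0.03 (limma adjusted p = 0.497) turned to -0.02 under quantile normalization and without mitochondrially encoded genes. PFKL made up 27.6% ± 0.345 of the 3 in WT and 31.6% ± 0.448 in CSE, and PFKP 49.1% ± 0.403 and 45.2% ± 0.458, neither overlapping between groups (SD, n = 3 each).

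The PFKFB enzymes make and break fructose bisphosphate of the regulatory kind, the allosteric activator of phosphofructokinase, and here their genes moved in opposite directions. PFKFB4 (ENSG00000114268, chromosome 3, 48517684 to 48562015, minus strand) had 24.2, 21.5 and 22.7 TPM in WT and 35.1, 34.7 and 33.1 TPM in CSE, 1.5-fold higher (0.57 on the log2 scale, SE 0.0525, limma adjusted p = 1.25e-08). PFKFB3, the isoform with the strongest kinase bias and the most abundant of the 3 in WT, had 38.1, 36.9 and 36.5 TPM in WT and 32.8, 34.0 and 32.3 TPM in CSE (-0.17 on the log2 scale, SE 0.0467, limma adjusted p = 0.00542). PFKFB2, the heart-type isoform, had 12.8, 12.1 and 12.1 TPM in WT and 10.1, 10.5 and 9.24 TPM in CSE (-0.29 on the log2 scale, SE 0.063, limma adjusted p = 0.00072). For each of the 3 genes the groups were separate, but their sum, 72.3 ± 2.44 TPM in WT and 77.3 ± 2.42 TPM in CSE, overlapped (SD, n = 3 each; exact two-sided permutation test, p = 0.2). PFKFB4 held 31.5% ± 0.911 of that sum in WT and 44.4% ± 0.591 in CSE, and PFKFB3 51.4% ± 0.859 and 42.8% ± 0.609. The most abundant PFKFB gene was thus PFKFB3 in all WT samples and PFKFB4 in all CSE samples. These were the widest share differences of any family, 12.9 percentage points for PFKFB4 and -8.66 for PFKFB3.

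Both aldolases rose, the minor one by more. ALDOA, the aldolase of muscle and most proliferating cells, had 752, 726 and 730 TPM in WT and 862, 869 and 862 TPM in CSE (1.17-fold, 0.23 on the log2 scale, SE 0.0353, limma adjusted p = 1.32e-05), a change that was 0.08 under quantile normalization. ALDOC, the brain-type isozyme (ENSG00000109107, chromosome 17, 28573115 to 28577264, minus strand), had 136, 128 and 128 TPM in WT and 180, 177 and 181 TPM in CSE (1.37-fold, 0.45 on the log2 scale, SE 0.0393, limma adjusted p = 4.53e-09). ALDOC held 15.1% ± 0.226 of aldolase TPM in WT and 17.2% ± 0.244 in CSE (SD, n = 3 each), without overlap.

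**Figure D3:**
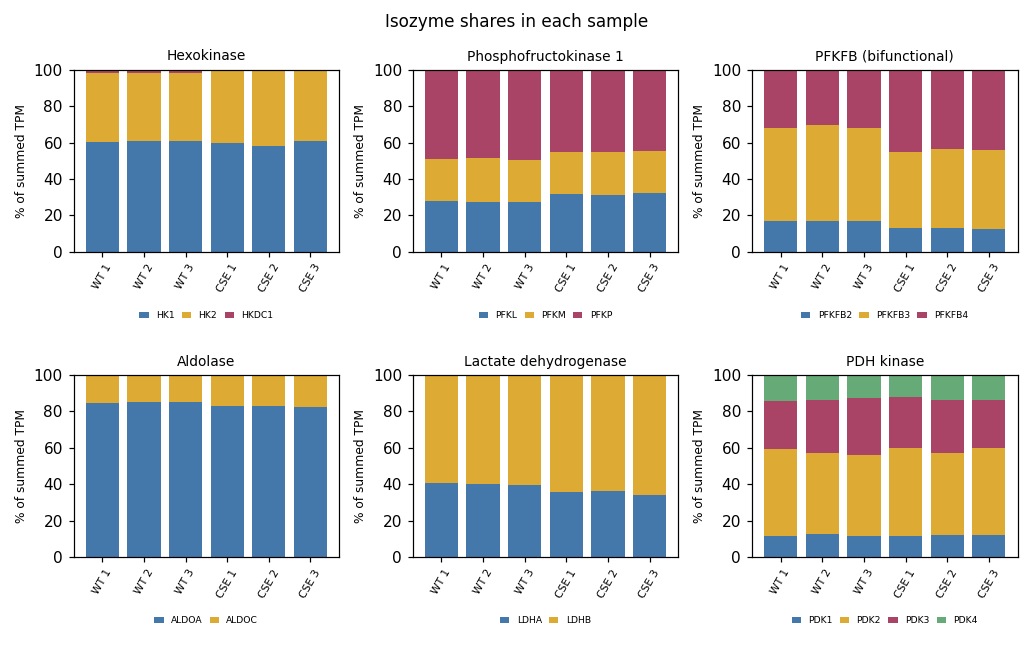
Share of each isozyme in the summed TPM of its family, in percent, for each of the 3 WT and 3 CSE samples; each bar adds up to 100. PFKFB4 goes from 30.5% to 32.2% in WT to 43.8% to 44.996% in CSE and LDHB from 59.2% to 60.2% to 63.7% to 65.9%, whereas the shares of the pyruvate dehydrogenase (PDH) kinases overlap.

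In the later reactions of glycolysis GAPDH had the largest change. GAPDH, the dehydrogenase that yields NADH and a widely used reference gene (ENSG00000111640, chromosome 12, 6533927 to 6538374, plus strand), had 2893, 2850 and 2892 TPM in the WT samples and 4826, 4863 and 4691 TPM in the CSE samples. The groups were far apart relative to their spread, and the gene was 1.67-fold higher (0.74 on the log2 scale, SE 0.0373, limma adjusted p = 8.48e-13), a size that 67 of the 12793 genes tested reached or passed, itself included. By mean TPM it ranked 30th of all genes in WT and 19th in CSE. It accounted for 55.7% of the rise in summed member TPM, from 11222 ± 145 in WT to 14661 ± 66.9 in CSE; the other 35 members summed to 8344 ± 141 and 9868 ± 24.0 TPM (SD, n = 3 each). Relative to GAPDH in the same sample, 34 of the other 35 members were lower in every CSE sample than in any WT sample, among them members that rose as TPM, such as TPI1 and PGAM1, so that for those the direction turns if GAPDH is taken as the reference. SLC2A3 was the member for which these ratios overlapped. Because so few of all genes tested rose as much as GAPDH, a ratio to it can fall for genes outside the list as well. The share of all genes tested with ratios separated in this way was not computed, so the count is not read here as a trait of the members. GENCODE 29 lists 62 pseudogenes named after GAPDH, none of which has a line in the table, so the handling of reads shared with them is not known.

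From triose phosphate isomerase to pyruvate kinase 7 of 9 members rose, GAPDH included, by unequal amounts, and BPGM and ENO3 did not pass. TPI1, which interconverts the triose phosphates (ENSG00000111669, chromosome 12, 6867119 to 6870948, plus strand), had 433, 423 and 406 TPM in WT and 592, 571 and 621 TPM in CSE (1.41-fold, 0.50 on the log2 scale, SE 0.0395, limma adjusted p = 1.32e-09). PGAM1, the main phosphoglycerate mutase (ENSG00000171314, chromosome 10, 97426160 to 97433441, plus strand), had 167, 169 and 169 TPM in WT and 244, 238 and 228 TPM in CSE (1.41-fold, 0.49 on the log2 scale, SE 0.0381, limma adjusted p = 1.07e-09). BPGM, which makes the bisphosphoglycerate that lowers haemoglobin's affinity for oxygen, was at a mean of 13.2 TPM in WT and 14.02 in CSE and did not pass (log2 fold change 0.08, limma adjusted p = 0.277). PGK1, the first ATP-yielding enzyme (ENSG00000102144, chromosome X, 77910739 to 78129296, plus strand), had 268, 263 and 252 TPM in WT and 314, 316 and 316 TPM in CSE (1.21-fold, 0.27 on the log2 scale, SE 0.037, limma adjusted p = 3.25e-06). The annotated span of PGK1 overlaps ATP7A and PGAM4, and GENCODE 29 lists 13 pseudogenes named after PGAM1. The spans of GPI, PFKFB4, ALDOA, ALDOC, ENO2 and LDHB also overlap another coding gene on the same strand. Named pseudogenes are listed for other members too, such as LDHA (6), PKM (5), TPI1 (4) and ENO1 (4). Reads of all these members may be split in a way that is not known.

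Enolase changed least among these steps. ENO1, the enolase of most tissues, had 2211, 2140 and 2132 TPM in WT and 2404, 2395 and 2408 TPM in CSE. Its rise of 1.11-fold (0.15 on the log2 scale, SE 0.0363, limma adjusted p = 0.00143) turned to -0.06 under quantile normalization (limma adjusted p = 0.0977) and was 0.10 without mitochondrially encoded genes. ENO2, the neuron-type enolase, rose from 110 to 128 TPM (log2 fold change 0.22, limma adjusted p = 0.000108), and ENO3, the muscle type, was at 14.04 and 14.7 TPM and did not pass (log2 fold change 0.06, limma adjusted p = 0.36). The ratio of GAPDH to ENO1 TPM was 1.31, 1.33 and 1.36 in WT and 2.01, 2.03 and 1.95 in CSE, which shows that these later steps changed unequally within the same libraries.

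PKM, the pyruvate kinase gene (ENSG00000067225, chromosome 15, 72199029 to 72231822, minus strand), had 949, 927 and 919 TPM in WT and 1141, 1136 and 1146 TPM in CSE. It rose 1.22-fold (0.29 on the log2 scale, SE 0.0352, limma adjusted p = 6e-07), or by 0.12 on the log2 scale under quantile normalization. The table gives 1 value per gene, so the M1 and M2 splice forms of PKM were not analysed here.

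Both lactate dehydrogenase genes rose, LDHB by more than LDHA. LDHB, the subunit of the heart-type enzyme (ENSG00000111716, chromosome 12, 21635342 to 21757857, minus strand), had 842, 863 and 841 TPM in WT and 1107, 1094 and 1192 TPM in CSE (1.33-fold, 0.41 on the log2 scale, SE 0.0389, limma adjusted p = 1.69e-08). LDHA, the subunit of the muscle-type enzyme and a well known hypoxia-induced gene, had 581, 579 and 556 TPM in WT and 621, 625 and 617 TPM in CSE (1.09-fold, 0.12 on the log2 scale, SE 0.0357, limma adjusted p = 0.00867). The LDHA call was lost under quantile normalization (log2 fold change 0.02, limma adjusted p = 0.464), without mitochondrially encoded genes (0.06, 0.0575) and without the variance trend (0.12, 0.0503). LDHB was the more abundant subunit in every sample, with 59.2%, 59.9% and 60.2% of the pair in WT and 64.0%, 63.7% and 65.9% in CSE, and the LDHB to LDHA ratio was 1.48 ± 0.0321 in WT and 1.82 ± 0.0974 in CSE (SD, n = 3 each; exact two-sided permutation test, p = 0.1, the smallest it can give).

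Genes of pyruvate entry rose by little, and most of their calls depended on the scaling or on single samples. The carrier subunit MPC2, which forms a heterodimer with MPC1 in the inner mitochondrial membrane, had 28.8, 29.6 and 26.8 TPM in WT and 30.5, 30.7 and 33.4 TPM in CSE (0.15 on the log2 scale, SE 0.0527, limma adjusted p = 0.0246). Its call was lost in 5 of the 15 alternatives, among them without WT replicate 3 (log2 fold change 0.11, limma adjusted p = 0.133), without CSE replicate 3 (0.11, 0.0752) and without mitochondrially encoded genes (0.09, 0.125). MPC1 had 26.3 ± 0.842 TPM in WT and 28.5 ± 1.42 in CSE (SD, n = 3 each) and did not pass (log2 fold change 0.11, limma adjusted p = 0.085). The pair stayed near equal, with MPC1 at 48.1% of their sum in WT and 47.4% in CSE.

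All 4 members that encode catalytic subunits of the pyruvate dehydrogenase complex rose. DLAT, the acetyltransferase core (ENSG00000150768, chromosome 11, 112024814 to 112064390, plus strand), had 37.5, 36.6 and 36.8 TPM in WT and 46.2, 46.5 and 43.5 TPM in CSE (1.23-fold, 0.29 on the log2 scale, SE 0.046, limma adjusted p = 2.32e-05). PDHB, the beta subunit of the decarboxylase and the most abundant of the 4, had 83.4, 88.4 and 80.1 TPM in WT and 91.1, 92.8 and 96.2 TPM in CSE (0.15 on the log2 scale, SE 0.0439, limma adjusted p = 0.00662). PDHA1, the alpha subunit that the kinases phosphorylate, rose from 54.3 to 60.03 TPM (log2 fold change 0.14, limma adjusted p = 0.00802), and DLD, the dehydrogenase shared with other complexes, from 58.1 to 65.6 TPM (log2 fold change 0.17, limma adjusted p = 0.00304). Without mitochondrially encoded genes PDHB (log2 fold change 0.09, limma adjusted p = 0.0538) and PDHA1 (0.09, 0.0558) no longer passed, and PDHA1 also missed without WT replicate 2 (0.13, 0.0583). The share of each subunit in the sum of the 4 overlapped between groups.

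The 4 pyruvate dehydrogenase kinases, which switch the complex off by phosphorylating PDHA1, all passed as higher. PDK2, the most abundant (ENSG00000005882, chromosome 17, 50094737 to 50112152, plus strand), had 19.8, 17.5 and 16.9 TPM in WT and 23.7, 22.7 and 21.3 TPM in CSE (0.31 on the log2 scale, SE 0.0609, limma adjusted p = 0.000249), and its call held in all 15 alternatives. PDK1, known for its induction in hypoxia, rose from 4.72 to 5.69 TPM (log2 fold change 0.22, limma adjusted p = 0.0173), a call lost without mitochondrially encoded genes (0.18, 0.052), WT replicate 3 (0.19, 0.0716) or CSE replicate 2 (0.18, 0.0934). PDK3 had 10.9, 11.5 and 11.96 TPM in WT and 13.6, 14.7 and 11.6 TPM in CSE, so that the groups overlapped (log2 fold change 0.20, limma adjusted p = 0.0261), and its call was lost in 7 of 15 alternatives, with a log2 fold change of 0.13 without CSE replicate 2 (limma adjusted p = 0.159) and 0.15 without mitochondrially encoded genes (0.14). PDK4, the starvation-induced kinase, had 5.98, 5.31 and 4.86 TPM in WT and 5.98, 6.92 and 6.15 TPM in CSE (log2 fold change 0.20, limma adjusted p = 0.0356) and lost its call in 5 of 15, for example without WT replicate 3 (0.15, 0.183) and without mitochondrially encoded genes (0.16, 0.1). Summed kinase TPM was 41.5, 39.1 and 38.2 in WT and 49.0, 50.4 and 44.3 in CSE, and the shares of all 4 overlapped between groups.

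PDP1, the phosphatase that reactivates the complex (ENSG00000164951, chromosome 8, 93857807 to 93926066, plus strand), did not pass and was very abundant. It had 613, 615 and 586 TPM in WT and 594, 611 and 569 TPM in CSE (-0.03 on the log2 scale, SE 0.0382, limma adjusted p = 0.495), and the groups overlapped. It passed as lower under quantile normalization (log2 fold change -0.13, limma adjusted p = 0.00616) and without mitochondrially encoded genes (-0.09, 0.0239). Its level was 11.1 ± 0.416 times that of PDHA1 in WT and 9.85 ± 0.394 times in CSE (SD, n = 3 each). Summed kinase TPM was 0.0655 ± 0.00209 of PDP1 TPM in WT and 0.0810 ± 0.00266 in CSE, without overlap (exact two-sided permutation test, p = 0.1). Relative to PDHA1, which the kinases act on, the same sum was 0.729 ± 0.0237 in WT and 0.798 ± 0.0571 in CSE, and the groups overlapped (SD, n = 3 each; exact two-sided permutation test, p = 0.3).

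The sum over each step was above WT in every CSE sample for 15 of the 17 steps. The exceptions were the PFKFB enzymes and PDP1, whose groups overlapped. For TPM of single genes the groups were separate, in either direction, for 57.4% of all genes tested. The steps of GPI, triose phosphate isomerase, GAPDH, PGK1, pyruvate kinase and PDP1 hold 1 member each, so they repeat the values of those genes. Without mitochondrially encoded genes the log2 ratio of the hexokinase sum was 0.03 in place of 0.09 (exact two-sided permutation test, p = 0.3), so 14 steps were above WT in every CSE sample, and the PDP1 sum was below WT in every CSE sample (-0.09). In order of the ratio of means, summed TPM was 1.67-fold for GAPDH, 1.41-fold for triose phosphate isomerase, 1.38-fold for the mutases, and 1.35-fold for both glucose transport and GPI. Lactate dehydrogenase (1.23-fold), pyruvate kinase (1.22-fold), the pyruvate dehydrogenase kinases (1.21-fold), PGK1 (1.21-fold) and aldolase (1.20-fold) lay in the middle. The complex itself (1.13-fold), enolase and phosphofructokinase (1.11-fold each), the pyruvate carrier (1.097-fold), the PFKFB enzymes (1.07-fold) and hexokinase (1.06-fold) came next, and PDP1 was at 0.978-fold. With 3 samples against 3 the exact two-sided permutation test gives p = 0.1 at best, or 0.113 adjusted over the 17 steps.

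**Figure D4:**
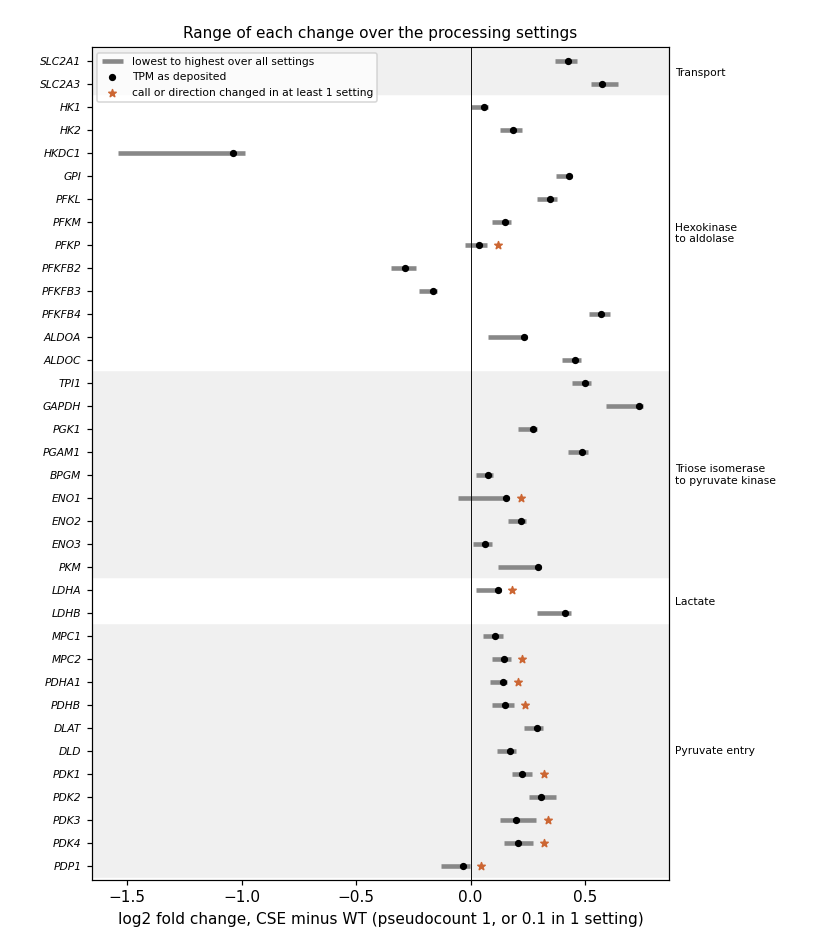
Log2 fold change of each member with TPM as deposited (black) and its range over this and 15 alternative settings (grey bar); a star marks the 10 members whose call or direction changed in at least 1 setting. The stars lie on members with small changes, such as ENO1, LDHA and the pyruvate dehydrogenase genes, and the bars of GAPDH, TPI1, PGAM1 and GPI stay well above 0.

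Promoter sequence is given for the members with the strongest rises that have an entry in the RefSeq table (GRCh38.p14), because these members changed most. SLC2A3, PFKFB2 and PDP1 had no entry, so after GAPDH the next is PFKFB4, and HKDC1 was added after its values were seen because it fell furthest. Each run holds the 250 bases before the RefSeq start, 5′ to 3′ on the gene's strand, and capitals mark ACGTG or GCGTG on either strand, the core letters of hypoxia response elements. The GAPDH and PFKFB4 runs lie inside the GENCODE 29 spans of these genes, 6533927 to 6538374 and 48517684 to 48562015. They precede an inner start, not the outermost annotated start of the gene.
GAPDH, chr12:6535014-6535263, plus strand: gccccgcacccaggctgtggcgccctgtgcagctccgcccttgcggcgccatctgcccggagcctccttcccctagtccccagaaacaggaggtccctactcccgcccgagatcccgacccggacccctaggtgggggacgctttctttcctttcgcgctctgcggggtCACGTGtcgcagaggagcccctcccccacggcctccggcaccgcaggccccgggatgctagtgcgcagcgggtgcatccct
PFKFB4, chr3:48556804-48557053, minus strand: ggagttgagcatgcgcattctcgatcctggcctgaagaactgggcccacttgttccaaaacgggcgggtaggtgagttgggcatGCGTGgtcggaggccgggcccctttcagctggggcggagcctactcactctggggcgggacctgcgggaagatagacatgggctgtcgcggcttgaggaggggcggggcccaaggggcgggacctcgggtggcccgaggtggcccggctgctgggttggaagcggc
HKDC1, chr10:69220082-69220331, plus strand: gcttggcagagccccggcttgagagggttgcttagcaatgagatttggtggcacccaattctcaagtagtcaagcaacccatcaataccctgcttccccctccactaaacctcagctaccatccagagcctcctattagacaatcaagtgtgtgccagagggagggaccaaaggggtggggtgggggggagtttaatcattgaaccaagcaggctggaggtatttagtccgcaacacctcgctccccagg
The GAPDH run holds CACGTG, which is ACGTG on each strand at once and was counted as 2 overlapping matches; the same letters are the E-box that MYC-type and ChREBP-type factors are known to bind. The PFKFB4 run holds 1 GCGTG, and the HKDC1 run holds neither.

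Of the 61 promoter windows of the 33 members with an entry, 52.5% held ACGTG or GCGTG. The share was 43.2% for all 35116 windows and 54.8% for the 15062 windows of genes tested, so members were not above tested genes. ACGTG was held by 34.4%, 18.5% and 22.0% of these sets, in that order. For GCGTG the shares were 32.8%, 32.2% and 43.3%, and for the overlapping CACGTG 13.1%, 6.34% and 8.16%. Members called higher, 26 genes, held ACGTG in 18 of 43 windows, and the other members, 7 genes, in 3 of 18. These counts are of windows and not of genes. Most of the 18 belong to HK1 and PFKP, and no HK1 window held ACGTG. LDHA carried 5 ACGTG matches in 1 window and HK2 4, and no window of SLC2A1, PGAM1, PKM or LDHB held either motif. Windows of the same gene can overlap, and a match is a description of letters, not of a bound factor.

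Several members are close neighbours in the genome. Of the 36, 6 lie on chromosome 12, and GAPDH, TPI1, ENO2 and SLC2A3 fall within chromosome 12, 6533927 to 7936275 (GRCh38, GENCODE 29). In this stretch, whose genes were looked at after the members' values were seen, 31 other genes were tested, of which 19 rose, 3 fell and 9 did not pass, with a median log2 fold change of 0.22. Over the 673 non-member genes tested on all of chromosome 12, 26.4% rose and the median was -0.02. The 3 largest rises among the neighbours were those of LAG3, an immune checkpoint receptor gene (log2 fold change 0.77), CDCA3, a cell cycle gene (0.63), and PTMS, which encodes parathymosin (0.61). The 3 that fell were EMG1 (-0.44) and NOP2 (-0.23), both of ribosome biogenesis, and ACSM4 (-0.25). Within 500 kb of GAPDH, TPI1 and ENO2 between 58.8% and 60% of the other genes tested rose. As GAPDH, TPI1 and ENO2 lie close together, their neighbours are largely the same genes. Across the 12 members with at least 10 such neighbours the median log2 fold change of the neighbours ran from -0.10 (SLC2A1) to 0.20 (ENO2). It was above 0.1 for 5, namely HK2, ALDOA and the largely shared neighbourhood of GAPDH, TPI1 and ENO2. Rising members with a neighbourhood near or below 0 were also seen. Whether the position of these genes bears on their change was not tested.

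**Figure D5:**
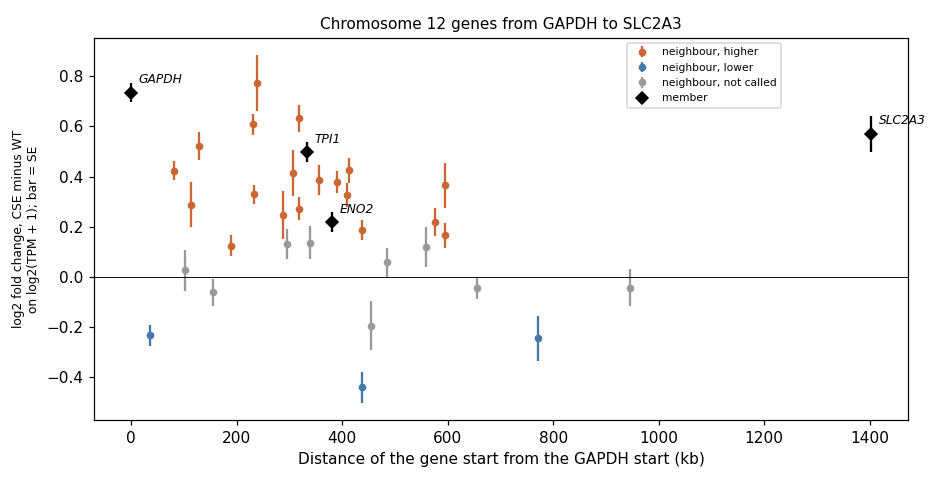
Log2 fold change, CSE against WT as log2(TPM + 1) with SE bars, of genes on chromosome 12 against the distance of their start from the start of GAPDH in kb. Black diamonds are the 4 members and circles the 31 other genes tested, 19 higher (orange), 3 lower (blue) and 9 not called (grey); the farthest of those higher, CLSTN3, lies 596 kb from GAPDH.

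Other genes of carbohydrate metabolism were counted in lists, to be read against the 24.5% of all genes tested that were called higher and the 25.6% called lower. Of 28 other isozymes and side enzymes of glycolysis 14 were tested, of which 2 rose and 6 fell (median log2 fold change -0.11). TIGAR, the bisphosphatase that lowers the activator of phosphofructokinase, fell from 14.7 to 10.8 TPM (-0.41), as did the inositol transporter gene SLC2A13 (-0.29) and SLC2A8 (-0.28), which encodes an intracellular sugar transporter. The phosphoglucomutase genes PGM2 (0.24) and PGM1 (0.15) rose. The 14 not tested were below the filter.

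In the pentose phosphate pathway, which takes glucose phosphate to NADPH and ribose, 5 of 8 tested genes rose and 2 fell (median log2 fold change 0.20). PGLS (0.32), PGD (0.28) and TKT (0.24) rose, and the isomerase genes RPE (-0.23) and RPIA (-0.19) fell. In the citric acid cycle 7 of 17 rose and 1 fell (median 0.09): SUCLG2 (0.47), IDH2 (0.36) and SDHD (0.20) rose and IDH3A fell (-0.18), while citrate synthase, CS, had 166 TPM in WT and 164 in CSE. Of 8 tested genes for other parts of pyruvate metabolism in mitochondria 4 rose and 1 fell (median 0.12). The second phosphatase gene, PDP2, fell from 21.1 ± 0.137 to 15.0 ± 0.830 TPM (SD, n = 3 each; -0.47 on the log2 scale, SE 0.0552, limma adjusted p = 4.31e-07), and LIPT2 (0.29), SLC25A1 (0.19) and pyruvate carboxylase PC (0.17) rose.

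Among genes of gluconeogenesis and malic enzymes 3 of 6 tested rose and 0 fell (median 0.11). G6PC3, the glucose phosphatase of most tissues, rose from 42.0 to 56.5 TPM (0.42). PC is on this list as well as on the one before, so its rise is counted in both. The branches to hexosamine, glycerol, serine and glycogen were split, with 4 of 14 higher and 8 lower (median -0.13). Glycogen synthesis genes GBE1 (0.45) and GYS1 (0.39) and the glycerol phosphate shuttle gene GPD2 (0.37) rose, whereas the glycogen phosphorylase PYGB (-0.46), the hexosamine entry enzyme GFPT1 (-0.39) and the serine entry enzyme PHGDH (-0.35) fell.

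Of 16 tested regulators 4 rose and 3 fell (median 0.03), with the share higher near the 24.5% of all genes tested. ARRDC4, an arrestin-domain gene known to be induced by glucose through the MondoA and ChREBP factors, rose from 142 ± 2.22 to 204 ± 1.11 TPM (SD, n = 3 each; 0.52 on the log2 scale, SE 0.037, limma adjusted p = 2.23e-10), while its relative TXNIP was listed at or near 0 in every sample. HIF1A, the hypoxia-inducible subunit that activates many glycolytic genes, rose from 116 ± 1.23 to 139 ± 9.20 TPM (0.26), and EGLN1, the oxygen-sensing hydroxylase that marks it for destruction, also rose (0.23). EPAS1, the HIF2 subunit (-0.23), the asparaginyl hydroxylase gene HIF1AN (-0.26) and the AMP kinase subunit gene PRKAA2 (-0.33) fell. These are mRNA values, and protein level, enzyme activity and metabolic flux were not analysed here.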

How the data were processed

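The authors deposited 1 table of TPM for 20263 genes in 6 poly(A) RNA-seq libraries. GRCh38, bedtools 2.26.0, HISAT2 2.0, Trimmomatic 0.36 and FastQC 0.11.2 appear in the submitters' processing notes, without their order. The counting program, annotation and strandedness: not given in the sources used here. Since TPM keeps no depth, no count model or counting interval was used, and the only floor was the TPM filter given below. Without known strand, reads of overlapping genes on opposite strands cannot be told apart; 23 members have such an overlap in GENCODE 29.

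Symbols were matched for 20148 genes. Genes with at least 1 TPM in at least 3 libraries (12793) were fitted as log2(TPM + 1) with limma 3.58.1 in R 4.3.3 (empirical Bayes with a mean-variance trend, all 6 samples, no covariate), with Benjamini-Hochberg adjustment over all genes and a threshold of 0.05. The fit code was tried on simulated data in which few genes were changed and the noise was independent. In the deposited data 50.1% of genes tested were called, so that trial does not bear on the calls given here. Shares, sums and ratios were compared with exact two-sided permutation tests over the samples. Given with values in every sample are members called with a log2 change of at least 0.25 in size and the most abundant member of each step; from each other list come the 3 largest called rises and falls. The members and lists were chosen with earlier results of these data known. The 15 alternatives are in the closing section.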

Additional observations from a re-analysis of the deposited data

How the results depend on the processing

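Of the 36 members 26 kept their direction and their side of the threshold in all alternatives in which they were tested (15, or 14 for HKDC1, which a mean of at least 5 TPM leaves out): 19 of those that rose, all 3 that fell, and 4 that did not pass. Members called higher numbered 27 and lower 3 with TPM as deposited, 25 and 4 under quantile normalization, 20 and 4 without mitochondrially encoded genes, and 24 to 26 and 3 when each sample was left out in turn. Calls over all genes numbered 5408 to 6558 when single samples were left out, against 6407 with all. PFKP had log2 fold changes of -0.016 (quantile normalization) and -0.023 (without mitochondrially encoded genes) against 0.035, and ENO1 had -0.055 (quantile normalization) against 0.15; the cause was not tested. The changes in isozyme shares kept their sign when single samples were left out, except for shares that overlapped between groups: PFKM (-0.224 to 0.228 percentage points), MPC1 (-1.60 to 0.0476), MPC2 (-0.0476 to 1.60), DLD (-0.353 to 0.166), PDK1 (-0.198 to 0.155) and PDK4 (-0.723 to 0.236). All 17 step sums kept their sign under median-of-ratios scaling and without mitochondrially encoded genes, but in the latter the hexokinase sum no longer separated the groups and the PDP1 sum did. The exact test cannot pass at this size, so its p-values say nothing on stability. With the replicate number as a block 6537 genes were called, and 27 members higher and 3 lower. Same-numbered samples had correlations of -0.0711, 0.0150 and -0.0883 between their deviations from the group means. These values show no sign of pairing by number, but with 3 samples per group they cannot settle whether samples were paired. Depth is unknown, which limits what can be said of members near 1 TPM such as HKDC1.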
